A study of Sus scrofa with 32 samples.

Results

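The cholesterol synthesis genes described here are a set of 8 symbols: HMGCS1, IDI1, FDPS, FDFT1, SQLE, LSS and DHCR7, which are enzymes of the pathway, and INSIG1, which is not an enzyme but a sterol-sensing regulator of it. Members were taken as every probe set for which the array annotation gives exactly 1 of these symbols. This found 5 of the 8 genes, in 6 probe sets, among 6765 named genes and 23999 probe sets other than controls: HMGCS1, FDPS, FDFT1 and SQLE with 1 probe set each and INSIG1 with 2. IDI1, LSS and DHCR7 were not matched and are not analysed here. All 6 probe sets passed the filter on dim values, and each lay above the 40th percentile on all 32 arrays.

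The study asked whether methylating micronutrients in the gestation diet affect the liver transcriptome of the offspring. Liver RNA of Pietrain pig fetuses was hybridised to 32 porcine expression arrays, 1 per sample. The dams were gilts fed either a control diet or a methyl-enriched diet (the methyl group), which differed in methylating micronutrients, and fetuses were collected at 35, 63 or 91 days post conception (dpc). The control group had 5, 6 and 5 arrays at these ages and the methyl group 5, 6 and 5. The labels name no other difference between the groups. Dam and litter of an array are not in the labels, so the p-values measure the spread between these samples, which may share a mother.

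Cholesterol is made in the liver from acetyl-CoA. HMGCS1 joins acetyl-CoA to acetoacetyl-CoA on the way to mevalonate, from which further enzymes, FDPS among them, build farnesyl diphosphate. FDFT1 (squalene synthase) commits farnesyl diphosphate to sterols, and SQLE (squalene epoxidase) oxidises squalene before it is cyclised to lanosterol and trimmed to cholesterol. Most of these genes are targets of the transcription factor SREBF2, which INSIG1 holds in the endoplasmic reticulum when sterols are plentiful. INSIG1 is itself a target of the same factors.

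Signals are log2 values, so a difference of 1 is a doubling. A call is an adjusted p under 0.05 from limma, with Benjamini-Hochberg adjustment over all 15327 probe sets tested. The ages differed widely across the array. From 35 to 63 dpc, 32.5% of all probe sets tested rose and 28.0% fell. From 63 to 91 dpc, 29.5% rose and 29.0% fell, and from 35 to 91 dpc, 40.8% rose and 39.1% fell. On all 32 arrays all 10 hepatocyte markers lay above the 40th percentile. On 18 arrays the signal of the spike-in control bioC exceeded that of bioB by 1.48 to 1.96, and on the other 14 by 0.24 to 0.41; these large-gap and small-gap arrays were spread evenly over the groups. The mean 3' minus 5' signal of control transcripts was 1.73 ± 0.20 (SD, n = 18) on the former and 1.37 ± 0.11 (SD, n = 14) on the latter.

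SQLE, HMGCS1 and INSIG1 rose at each step of gestation, whereas FDFT1 rose slightly and FDPS fell slightly, both from 35 to 63 dpc. Of the 5 genes, 4 rose and 1 fell between 35 and 63 dpc, and 3 rose and none fell between 63 and 91 dpc. The median difference over the 5 was 0.43 for the earlier step and 0.81 for the later one, beside medians of -0.09 and -0.14 over the 5593 named genes tested. In bulk liver, fewer cells of a type and less RNA per cell cannot be told apart. No member was called for diet at any age.

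SQLE gave the widest separation of the ages. At 35 dpc the control arrays read 8.67, 8.31, 7.13, 7.41 and 7.76 (mean 7.85 ± 0.64, SD, n = 5) and the methyl arrays 7.29, 8.04, 8.27, 7.53 and 7.62 (7.75 ± 0.40, n = 5). At 63 dpc the control arrays ran from 8.75 to 9.27 with a median of 8.96 (mean 8.99 ± 0.23, SD, n = 6), and the methyl arrays from 8.74 to 9.37 with a median of 9.19 (9.16 ± 0.22, n = 6). At 91 dpc the control arrays read 10.20, 10.26, 10.02, 10.09 and 10.08 (10.13 ± 0.10, n = 5) and the methyl arrays 10.03, 10.18, 10.14, 9.77 and 9.95 (10.01 ± 0.16, n = 5). Every 63 dpc array lay above every 35 dpc array and every 91 dpc array above every 63 dpc array, whatever the diet. The difference was 1.27 ± 0.14 (SE) from 35 to 63 dpc, a 2.42-fold rise (95% interval 1.98 to 2.94, limma adjusted p = 1.19e-08). It was 0.997 ± 0.140 from 63 to 91 dpc (95% interval of the fold 1.64 to 2.43, limma adjusted p = 5.32e-07). Over the whole interval SQLE rose 4.82-fold (3.92 to 5.93). The spread between arrays was lower at the later ages, with an SD over both diets of 0.50 (n = 10), 0.23 (n = 12) and 0.14 (n = 10).

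HMGCS1, the cytosolic HMG-CoA synthase, rose by a similar amount with more overlap. At 35 dpc the control arrays read 10.71, 10.73, 9.26, 9.21 and 9.98 (9.98 ± 0.74, SD, n = 5) and the methyl arrays 9.21, 9.54, 9.90, 9.43 and 9.31 (9.48 ± 0.27, n = 5). Replicates 1 and 2 of the control group were the highest of that age, the next being 9.98, and lie within the range of the 63 dpc arrays. At 63 dpc the control arrays ran from 10.18 to 11.30 (median 10.59, mean 10.65 ± 0.43, n = 6) and the methyl arrays from 10.31 to 10.81 (median 10.64, mean 10.62 ± 0.19, n = 6). At 91 dpc the control arrays read 12.05, 11.41, 12.00, 11.57 and 11.66 (11.74 ± 0.28, n = 5) and the methyl arrays 12.21, 11.62, 11.67, 11.14 and 11.63 (11.65 ± 0.38, n = 5). Only the lowest methyl array at 91 dpc fell within the 63 dpc range. The step from 35 to 63 dpc was 0.91 ± 0.17 (1.88-fold, 95% interval 1.48 to 2.38, limma adjusted p = 3.38e-05) and that from 63 to 91 dpc 1.06 ± 0.17 (2.08-fold, 1.64 to 2.64, limma adjusted p = 4.00e-06). From 35 to 91 dpc HMGCS1 rose 3.91-fold (3.05 to 5.02).

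FDPS makes farnesyl diphosphate, which also feeds protein prenylation and the synthesis of ubiquinone and dolichol. At 35 dpc the control arrays read 12.33, 12.22, 12.70, 12.59 and 12.79 (12.53 ± 0.24, SD, n = 5) and the methyl arrays 12.63, 12.48, 12.74, 12.21 and 12.09 (12.43 ± 0.27, n = 5). The 63 dpc means were 12.16 ± 0.26 in controls and 12.22 ± 0.10 in the methyl group (n = 6 each), and the 91 dpc means 12.09 ± 0.14 and 12.17 ± 0.17 (n = 5 each). All 3 ages overlapped. FDPS fell by 0.29 ± 0.09 from 35 to 63 dpc, 1.22-fold (limma adjusted p = 0.00541). Within 1 diet this step was -0.36 ± 0.12 in controls (limma adjusted p = 0.0200) and -0.21 ± 0.12 in the methyl group (limma adjusted p = 0.152). The interaction described below did not call a difference between the diets. From 63 to 91 dpc the difference was -0.06 ± 0.09 (95% interval -0.24 to 0.12, limma adjusted p = 0.564). Over the whole interval it fell by 0.35 ± 0.09 (limma adjusted p = 0.000935).

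FDFT1, the first enzyme committed to sterols, showed the smallest age differences of the 4 enzymes over the whole interval. At 35 dpc the control arrays read 10.79, 10.996, 10.62, 10.78 and 10.69 (10.77 ± 0.14, SD, n = 5) and the methyl arrays 10.21, 10.84, 10.73, 10.78 and 10.53 (10.62 ± 0.26, n = 5). The means were 10.93 ± 0.14 and 10.93 ± 0.20 at 63 dpc (n = 6 each) and 10.85 ± 0.15 and 10.90 ± 0.15 at 91 dpc (n = 5 each). The ages overlapped. FDFT1 rose by 0.23 ± 0.08 from 35 to 63 dpc (1.18-fold, limma adjusted p = 0.0121), and the later step was -0.05 ± 0.08 (95% interval -0.22 to 0.11, limma adjusted p = 0.568). Within 1 diet the earlier step was 0.15 ± 0.11 in controls (limma adjusted p = 0.285) and 0.31 ± 0.11 in the methyl group (limma adjusted p = 0.0213). The interaction did not call a difference between the diets here either. From 35 to 91 dpc the difference of 0.18 ± 0.08 had a limma adjusted p of 0.0491, and the call was lost under 8 alternative settings and in 21 of the 32 fits that each left out 1 array, over which it ran from 0.13 to 0.21. FDFT1 was also lower by 0.19 ± 0.06 on the large-gap arrays than on the small-gap arrays (limma adjusted p = 0.0118).

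INSIG1, the regulator, rose at both steps. On its brighter probe set the 35 dpc control arrays read 10.65, 10.28, 10.27, 10.43 and 10.16 (10.36 ± 0.19, SD, n = 5) and the methyl arrays 9.97, 10.54, 10.76, 9.93 and 9.82 (10.21 ± 0.42, n = 5). The 63 dpc arrays ran from 10.55 to 10.81 in controls (median 10.60, mean 10.64 ± 0.12, n = 6) and from 10.57 to 11.06 in the methyl group (median 10.69, mean 10.77 ± 0.22, n = 6). At 91 dpc the control arrays read 11.39, 11.51, 11.50, 11.49 and 11.72 (11.52 ± 0.12, n = 5) and the methyl arrays 11.81, 11.78, 11.46, 11.14 and 11.33 (11.50 ± 0.29, n = 5). The earlier ages overlapped, and all 91 dpc arrays lay above all 63 dpc arrays. The steps were 0.43 ± 0.10 (1.34-fold, 95% interval 1.16 to 1.55, limma adjusted p = 0.000755) and 0.81 ± 0.10 (1.75-fold, 1.51 to 2.02, limma adjusted p = 1.12e-07). The later step minus the earlier was 0.38 ± 0.18, with a limma adjusted p of 0.161, so the steps were not shown to differ in size. From 35 to 91 dpc INSIG1 rose 2.35-fold (2.02 to 2.74).

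The dimmer INSIG1 probe set did not follow the brighter one. It read between 3.15 and 5.78, and 6 of the 32 arrays held exactly the same value of 4.29. Its age steps were -0.02 ± 0.29 (95% interval -0.60 to 0.56) and 0.03 ± 0.29 (-0.55 to 0.61), neither called by limma. It was lower by 1.01 ± 0.15 on the large-gap arrays (mean 3.83) than on the small-gap arrays (4.83), with a limma adjusted p of 1.22e-05. With the mean of the 2 probe sets in place of the brighter one, the INSIG1 step from 35 to 63 dpc was 0.20 (limma adjusted p = 0.301). The later step was then 0.42 in place of 0.81 and the difference from 35 to 91 dpc 0.62 in place of 1.23, both still called. Within the methyl group neither step was called with that mean, at 0.46 (limma adjusted p = 0.107) and 0.25 (0.405).

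**Figure D1:**
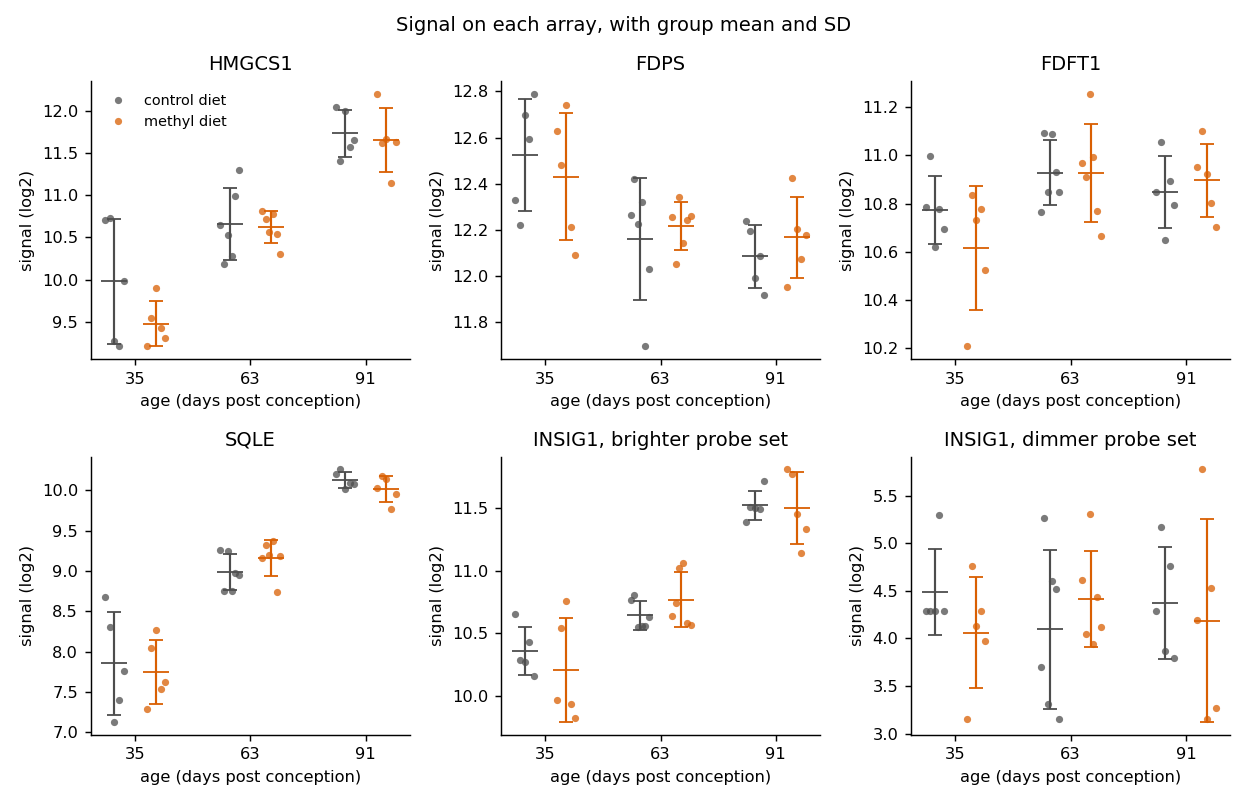
Signal (log2) of each member probe set on every array against age in days post conception, control diet in grey and methyl diet in orange; each point is an array, and the horizontal mark and bars are the group mean and SD (n = 5 or 6). The SQLE arrays of the 3 ages do not overlap, FDPS and FDFT1 overlap at all ages, and the dimmer INSIG1 probe set shows no order by age.

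No member had a called difference between its 2 steps, beside 13.0% of all probe sets tested. The later minus the earlier step was -0.28 ± 0.24 for SQLE and 0.15 ± 0.29 for HMGCS1. Both rose in each diet taken alone. SQLE rose by 1.13 and 1.14 in controls and by 1.41 and 0.85 in the methyl group, each ± 0.20 (SE), and HMGCS1 by 0.68 and 1.08 in controls and by 1.14 and 1.03 in the methyl group, each ± 0.24. The earlier HMGCS1 step in controls lost its call without replicate 3 (0.50) or 4 (0.48) of the 35 dpc controls, or replicate 5 (0.61) or 6 (0.55) of the 63 dpc controls. It was also not called with array weights (0.55, limma adjusted p = 0.0541), on small-gap arrays alone (0.51, 0.422) or with the erythroid mean described below as a covariate (0.71, 0.0538). On small-gap arrays alone the earlier SQLE step in controls was 0.97 (limma adjusted p = 0.0706) and the earlier HMGCS1 step in the methyl group 1.15 (0.0677). INSIG1 had a later step of 0.88 in controls and 0.73 in the methyl group, each ± 0.15, and all of these later steps were called by limma on all arrays. On small-gap arrays alone the later step was not called for HMGCS1 in either diet or for INSIG1 in the methyl group, on large-gap arrays alone it was not called for SQLE in the methyl group (0.75, limma adjusted p = 0.0598), and with the erythroid covariate it was called for none of the 3 in either diet. The earlier INSIG1 step was 0.29 ± 0.15 in controls (limma adjusted p = 0.118) and 0.56 ± 0.15 in the methyl group (limma adjusted p = 0.00203). After quantile normalization it was 0.35 in controls and called (limma adjusted p = 0.0342). The difference between diets in these steps is tested by the interaction below.

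The order of the 6 groups was therefore set by age for SQLE, HMGCS1 and INSIG1: both 35 dpc groups lowest, both 63 dpc groups in the middle and both 91 dpc groups highest. Neighbours of the same age, control and methyl, were not called different. For FDPS the 35 dpc groups were highest and the other 4 groups lay between 12.09 and 12.22. For FDFT1 the 35 dpc groups were lowest and the other 4 lay between 10.85 and 10.93.

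**Figure D2:**
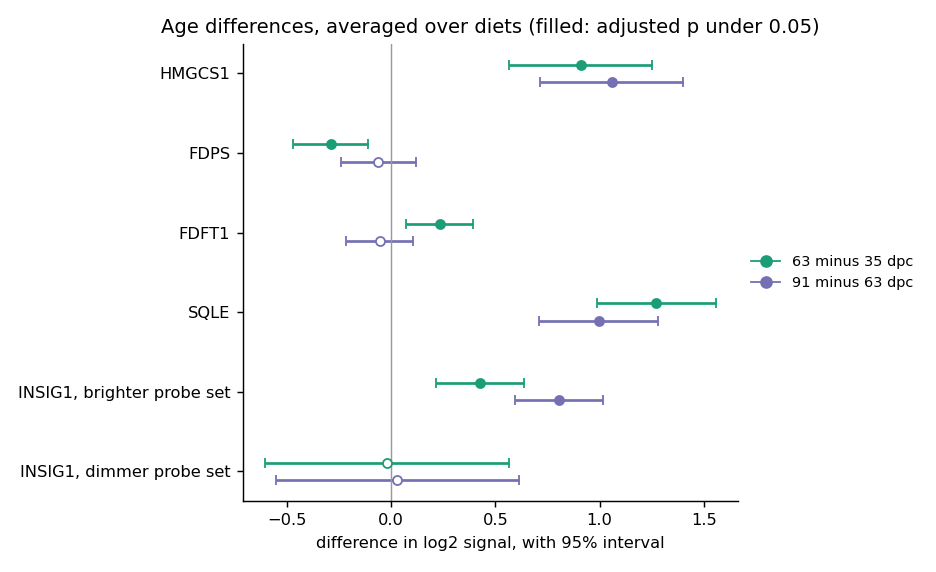
Difference in log2 signal between successive ages, averaged over diets, with 95% intervals, for the 6 member probe sets; filled points have a limma adjusted p under 0.05. SQLE and HMGCS1 lie near 1 at both steps, INSIG1 (brighter probe set) at 0.43 and 0.81, and FDPS and FDFT1 within 0.3 of 0.

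The signals of markers of other cell types also differed between these ages. The mean of the 8 erythroid markers named on the array, of 16 listed, ran from 10.46 to 11.29 at 35 dpc, from 10.06 to 10.80 at 63 dpc and from 8.10 to 9.36 at 91 dpc, while the mean of the 10 hepatocyte markers was 14.75, 15.34 and 15.45. Neither list moved as a whole. Of the erythroid markers 1 rose and 6 fell at each step. Of the hepatocyte markers 5 rose and 0 fell at the earlier step, and 3 rose and 3 fell at the later. Among all genes tested, 30.4% rose and 38.5% fell at the earlier step, and 22.6% rose and 39.8% fell at the later. With that erythroid mean added as a covariate, the 35 to 63 dpc step stayed called for all 5 genes, at 1.18 for SQLE, 0.94 for HMGCS1, 0.36 for INSIG1, 0.24 for FDFT1 and -0.38 for FDPS. The 63 to 91 dpc step was then 0.67 ± 0.40 for SQLE (limma adjusted p = 0.262), 1.16 ± 0.49 for HMGCS1 (0.108) and 0.58 ± 0.30 for INSIG1 (0.179), so none of these 3 was called. The erythroid means of the 63 and 91 dpc arrays do not overlap. The 8 macrophage markers named, of 12, had means of 7.21, 7.39 and 8.43. The 5 neutrophil markers, of 8, had means of 8.26, 9.14 and 7.55. Of 6 markers of steroid-producing adrenal and gonad cells, 5 were named, with list means of 3.24 at 35 dpc (2.95 to 3.57 by array), 2.97 at 63 dpc (2.89 to 3.14) and 2.95 at 91 dpc (2.82 to 3.10). Among them 1 lay above the 40th percentile on all arrays and 2, CYP11A1 and CYP17A1, on none. The 2 that could be tested both fell from 35 to 63 dpc, with a median of -0.64, and the part of this list in the members' values was not tested.

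Within the large-gap arrays alone, SQLE rose by 1.43 and 0.85, HMGCS1 by 0.99 and 1.16 and INSIG1 by 0.45 and 0.82. Within the small-gap arrays the steps were 1.11 and 1.15 for SQLE, 0.83 and 0.87 for HMGCS1 and 0.40 and 0.79 for INSIG1. Among these, the INSIG1 step of 0.40 was not called (limma adjusted p = 0.0797). The earlier step of FDFT1 was 0.17 (limma adjusted p = 0.256) and that of FDPS -0.16 (limma adjusted p = 0.406) on the small-gap arrays.

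The diet comparison asked whether the methyl diet shifted these genes at any age. At 35 dpc limma called 0 of the 6 member probe sets, beside 0.0391% of all probe sets tested (6 called, 933 with an unadjusted p under 0.05). At 63 dpc it called 0 of 6, beside 0% (219 unadjusted), and at 91 dpc 0 of 6, beside 0.0718% (11 called, 1000 unadjusted). Averaged over ages (0% of all, 685 unadjusted) and by the interaction of diet with age (0% of all, 660 unadjusted) limma again called no member. No member had an unadjusted p under 0.05 in any of these 5 tests.

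HMGCS1 at 35 dpc had the largest diet difference, with the methyl group lower by 0.50 ± 0.25 on the log2 scale, or 1.42-fold (95% interval of the log2 difference -1.01 to 0.006, unadjusted p = 0.0526, limma adjusted p = 0.816). The control group holds the 2 high arrays described above; its other 3 arrays read between 9.21 and 9.98, beside 9.21 to 9.90 in the methyl group. At 63 and 91 dpc the HMGCS1 difference was -0.03 ± 0.23 and -0.08 ± 0.25. For SQLE the methyl minus control difference was -0.10 (95% interval -0.52 to 0.32) at 35 dpc, 0.17 (-0.21 to 0.56) at 63 dpc and -0.12 (-0.54 to 0.31) at 91 dpc. INSIG1 gave -0.15 (-0.46 to 0.16), 0.12 (-0.16 to 0.41) and -0.02 (-0.33 to 0.29). FDPS gave -0.10 (-0.36 to 0.17), 0.06 (-0.19 to 0.30) and 0.08 (-0.18 to 0.35). FDFT1 gave -0.16 (-0.40 to 0.08), -0.0021 (-0.22 to 0.22) and 0.05 (-0.19 to 0.29). The intervals of FDPS and FDFT1 leave room for a diet difference of up to 0.40 in size, and those of SQLE and HMGCS1 for more, so a missed call does not show that the diets act alike.

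**Figure D3:**
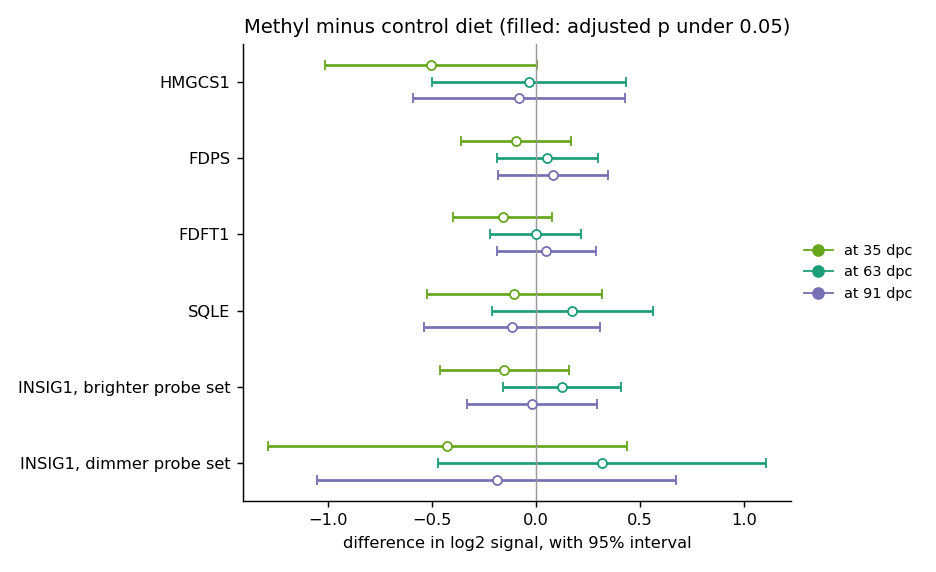
Methyl minus control diet difference in log2 signal at each age, with 95% intervals, for the 6 member probe sets; open points are not called by limma. All 18 points are open, and HMGCS1 at 35 dpc, at -0.50, lies farthest from 0 among the 5 brighter probe sets.

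The other enzymes of the pathway were described with a list of 14 genes, of which 7 were named on the array and all 7 were tested, each by its brightest probe set. From 35 to 63 dpc, 3 rose, 1 fell and 3 were not called, with a median difference of 0.25. From 63 to 91 dpc, 5 rose, none fell and 2 were not called, with a median of 1.02. Among all 5593 genes tested, 30.4% rose and 38.5% fell at the earlier step, and 22.6% rose and 39.8% fell at the later one.

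In this list CYP51A1, MSMO1 and SC5D rose at both steps. They work on sterols from lanosterol onward, as do HSD17B7, NSDHL and TM7SF2, which were not called higher at both. CYP51A1, lanosterol 14-alpha-demethylase, had mean signals of 10.34 ± 0.49 (SD, n = 10), 11.71 ± 0.27 (n = 12) and 13.04 ± 0.11 (n = 10) at the 3 ages, and rose by 1.38 ± 0.14 and 1.33 ± 0.14 (limma adjusted p = 2.36e-09 and 2.35e-09). MSMO1, which oxidises the 4-methyl groups, rose by 1.30 ± 0.17 and 1.19 ± 0.17 (limma adjusted p = 1.52e-07 and 5.63e-07). On its dimmer tested probe set the steps were 0.29 ± 0.17 and 0.42 ± 0.17 (limma adjusted p = 0.135 and 0.031), only the later called. SC5D, the lathosterol oxidase, rose by 1.76 ± 0.19 and 1.31 ± 0.19 (limma adjusted p = 7.59e-09 and 8.19e-07). HSD17B7, a 3-ketosteroid reductase, was 0.22 ± 0.14 at the earlier step (limma adjusted p = 0.180) and rose by 1.02 ± 0.14 at the later (limma adjusted p = 5.93e-07).

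The remaining enzymes moved less. NSDHL, which removes the C4 carboxyl group, fell by 0.27 ± 0.11 at the earlier step (limma adjusted p = 0.0306), and the later difference was -0.10 ± 0.11. To complete the list, chosen after their values were seen, TM7SF2, a sterol 14-reductase, was 0.18 ± 0.10 and then rose by 0.40 ± 0.10 (limma adjusted p = 0.119 and 0.00091). ACAT2, the cytosolic thiolase that makes acetoacetyl-CoA, was 0.25 ± 0.12 and -0.07 ± 0.12 (limma adjusted p = 0.0597 and 0.613). In pathway order, members and other enzymes together, the enzymes called higher at both steps were HMGCS1, SQLE, CYP51A1, MSMO1 and SC5D. FDPS and FDFT1 act between HMGCS1 and SQLE, and NSDHL between MSMO1 and SC5D. With the erythroid covariate, CYP51A1 and MSMO1 kept a called later step, of 1.71 for CYP51A1 (limma adjusted p = 0.0083), while that of SC5D was 1.49 (limma adjusted p = 0.0672) and that of HSD17B7 0.12 (limma adjusted p = 0.867). NSDHL was no longer called without any 1 of 7 arrays, at -0.23 to -0.26, on small-gap arrays alone (-0.12, limma adjusted p = 0.651) or with array weights (-0.20, 0.0807). None of the 7 was called for diet at any age.

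**Figure D4:**
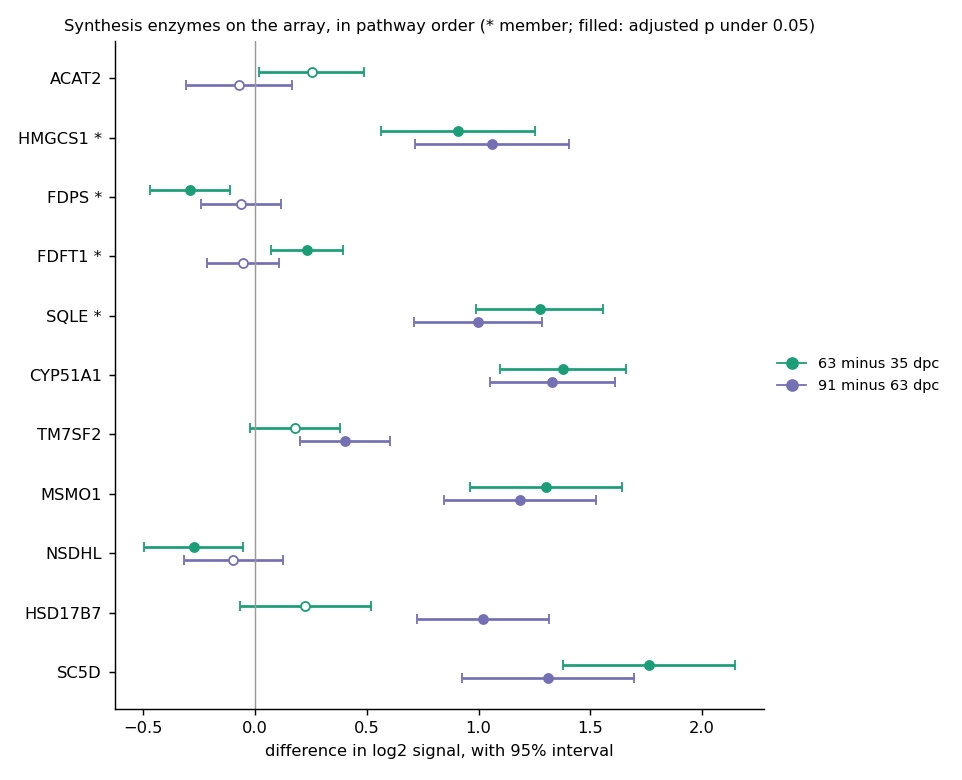
Age differences in log2 signal with 95% intervals for the 11 synthesis enzymes on the array, from acetoacetyl-CoA (top) to the last sterol steps (bottom); members carry an asterisk and filled points have a limma adjusted p under 0.05. HMGCS1, SQLE, CYP51A1, MSMO1 and SC5D rise at both steps, and FDPS and NSDHL lie below 0.

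A further list held the regulators that sense sterols and genes that move cholesterol into cells. Of 12 genes listed, 7 were named and tested. From 35 to 63 dpc 1 rose and 3 fell, with a median of -0.17, beside 30.4% and 38.5% of all genes and their median of -0.09. From 63 to 91 dpc 2 rose and 1 fell, with a median of 0.08, beside 22.6% and 39.8% and a median of -0.14. INSIG2, the second INSIG protein, rose by 2.01 ± 0.29 and 1.33 ± 0.29 (limma adjusted p = 1.01e-06 and 0.000256), from 4.08 ± 0.90 (SD, n = 10) to 6.09 ± 0.62 (n = 12) and 7.42 ± 0.57 (n = 10). SREBF2, the factor that drives most of the members, was -0.17 ± 0.12 and 0.08 ± 0.12, neither called (limma adjusted p = 0.202 and 0.565), on the brighter of its 2 tested probe sets, its earlier value was -0.30 and called (limma adjusted p = 0.0205) after quantile normalization, and its later value was -0.42 with the erythroid covariate and -0.12 with the mean of its probe sets. SCAP, which escorts it from the endoplasmic reticulum, fell by 0.32 ± 0.12 and was then 0.25 ± 0.12 (limma adjusted p = 0.0189 and 0.0607), the latter turning to -0.41 with the erythroid covariate. NPC1 and NPC2, which release cholesterol from lysosomes, fell by 0.32 ± 0.12 and 0.27 ± 0.09 at the earlier step (limma adjusted p = 0.0213 and 0.00976), and NPC2 fell again by 0.29 ± 0.09. LIPA, the lysosomal acid lipase, was -0.08 ± 0.12 and then rose by 0.34 ± 0.12 (limma adjusted p = 0.0146). The calls of NPC1, NPC2 and LIPA did not hold within either spike-in gap class, nor the later call of INSIG2 within the small-gap arrays (0.99, limma adjusted p = 0.126) or with the erythroid covariate (1.62, limma adjusted p = 0.192). With the erythroid covariate the NPC2 steps were -0.26 and -0.23 and the later LIPA step 0.56 (limma adjusted p = 0.0608, 0.577 and 0.262), and with the mean of its probe sets LIPA was 0.25 (0.166), none of them called. SCAP lost its earlier call on small-gap arrays alone (-0.20, limma adjusted p = 0.411) and without replicate 1 of the 35 dpc methyl group (-0.25), and its later step was called when any 1 of 6 arrays was left out, at 0.25 to 0.29.

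Apart from age and diet, some members varied together between arrays. Each array was expressed as its deviation from the mean of the arrays of its group and spike-in gap class, which removes 12 means from 32 arrays and leaves 20 degrees of freedom. The arrays share their processing and any difference in cell mix or RNA quality, so these values describe and do not test. Over the 10 pairs of the 5 genes the median Pearson r was 0.38, beside 0.05 over all pairs of the 5593 named genes, and 4 of the 10 pairs exceeded 0.5, beside 12.3% of all pairs. SQLE with HMGCS1 gave the highest r, 0.74 (Spearman rho 0.60), and 0.62 without the 2 arrays farthest from the SQLE median. By age it was 0.93 at 35 dpc (n = 10), 0.13 at 63 dpc (n = 12) and 0.39 at 91 dpc (n = 10). Where a group had only 2 arrays in a gap class, as at 35 and 91 dpc, their deviations mirror each other. Fewer points are therefore independent than the n given. FDFT1 with INSIG1 gave 0.65, SQLE with FDFT1 0.62 and SQLE with INSIG1 0.55. With only the group means removed, and not those of the gap classes, the median was 0.28 and 2 of the 10 pairs exceeded 0.5: r was 0.70 for SQLE with HMGCS1, 0.53 for SQLE with INSIG1, 0.49 for FDFT1 with INSIG1 and 0.38 for SQLE with FDFT1. For FDPS the r was -0.44 with HMGCS1, -0.14 with SQLE, 0.09 with FDFT1 and 0.26 with INSIG1. With an array left out, its r with SQLE ran from -0.31 to 0.09.

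**Figure D5:**
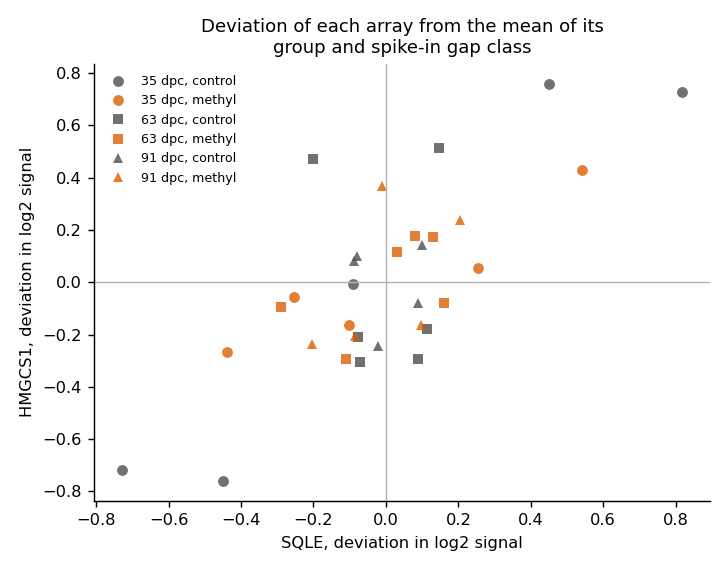
Deviation of HMGCS1 against that of SQLE (log2 signal) on each of the 32 arrays, from the mean of the arrays of the same group and spike-in gap class; circles are 35, squares 63 and triangles 91 dpc, control in grey and methyl in orange. The 4 arrays farthest from the centre along the diagonal are 35 dpc controls, and the r over all arrays is 0.74.

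The 4 extreme arrays in that plot are 35 dpc controls: replicates 1 and 2 high in both genes and replicates 3 and 4 low in both. Replicates 1 and 3 were large-gap arrays and replicates 2 and 4 small-gap arrays. The latter were the only small-gap arrays of their group, so their deviations are equal and opposite by construction (0.45 and -0.45 for SQLE). The erythroid means were 10.91, 11.29, 10.65 and 11.03 for replicates 1 to 4. Among these 4 arrays, within each gap class, the array with the higher erythroid mean had the higher SQLE and HMGCS1 signals. The 35 dpc methyl arrays did not follow this order. Their small-gap replicate 4 (erythroid mean 11.06) read 7.53 for SQLE, below the 8.04 of replicate 2 (11.015). Of their large-gap arrays, replicate 1 (10.85) read 7.29, replicate 3 (10.67) 8.27 and replicate 5 (10.46) 7.62. HMGCS1 ranked these methyl arrays in the same way within each class. The part of the cell mix in the spread of the 35 dpc arrays was not tested.

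Among the 5588 other named genes, those whose deviations were most like the mean of the members were WTAP (r 0.88), F2R (0.83), HSPA9 (0.82), PEG10 (0.81) and GORASP2 (0.80), each over 32 arrays. The lowest were CSF3 (-0.74), JMJD7 (-0.70), SOX10 (-0.69), HSD17B8 (-0.66) and LPCAT4 (-0.66). Of the other synthesis enzymes, MSMO1 came 34th with an r of 0.73, SC5D had 0.51 and CYP51A1 0.51, while ACAT2, HSD17B7, NSDHL and TM7SF2 lay between 0.03 and 0.36. Of the sterol-sensing and uptake genes, NPC1 had an r of 0.54, INSIG2 0.38, MYLIP 0.26, NPC2 0.14, SREBF2 0.13, SCAP 0.03 and LIPA -0.31.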

How the data were processed

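The values as deposited are log2 signals of each probe set on each array, from 2.20 to 16.6, as read from the values; of the software, only GCOS 1.1.1 appears in the submitters' processing notes, with no step given for it, and the normalization is not given in the sources used here. Array medians ran from 3.84 to 4.23, and the number of arrays limits the precision. RNA was DNase-treated and labelled with biotin, per the labels' protocols. Values were used as deposited. Of 24123 probe sets, 124 controls were set aside, and 15327 of the other 23999 lay above the array's 40th percentile in at least 5 arrays and were tested. Genes were named by the array annotation, which gives 10099 probe sets a single symbol and 198 several; a listed gene, CYP51A1, was matched through its older symbol CYP51. With R 4.3.3, the package limma (version 3.58.1) fitted 6 group means with an intensity trend, and the contrasts were age, diet and their interaction; the fit was tested on simulated data. Figures and correlations used Python with numpy, pandas and matplotlib.

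A gene with several probe sets was led by its brightest over all arrays. All member probe sets are described. Of each other list, counts are given with up to 4 genes per step, those with the smallest p, and SREBF2, SREBF1 and CYP7A1 whatever their values. Some items are not reported here. The 5 genes most and least like the members were ranked by Pearson r. The members and lists were chosen with earlier results of these data known. Alternatives changed the spread model, the filter, the normalization, array weights, the spike-in gap class, an erythroid or 3' to 5' covariate, the arrays in the fit, the probe set, the threshold and each array left out in turn.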

Additional observations from a re-analysis of the deposited data

Results flagged for a closer look

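In 36 groups of 5 or 6 arrays (6 probe sets by 6 groups), 2 held an array farther from its nearest neighbour than Dixon's critical value allows; chance flags about 1 in 20 groups. SQLE in the 63 dpc methyl group read 8.74 in replicate 5, and the next lowest array of that group was 9.16. The dimmer INSIG1 probe set in the 35 dpc control group read 5.29 in replicate 4, and the other 4 arrays of that group all read 4.29, the value shared by 6 arrays of the series.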

How the results depend on the processing

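No paired analysis was possible because the replicate numbers follow the order of the samples and pair nothing. The rises of SQLE and HMGCS1 from 35 to 63 dpc and from 35 to 91 dpc were called under all 46 alternatives, and no member was called for diet under any. Lost calls of the members' age differences averaged over diets follow, with the limma log2 difference; the causes were not tested. Calls within 1 diet and those of other genes were lost in further settings, mostly given beside those values. The INSIG1 step from 35 to 63 dpc in the methyl group was 0.51 on small-gap arrays (limma adjusted p = 0.142); within controls the FDPS step from 35 to 63 dpc was -0.43 on large-gap and -0.26 on small-gap arrays, and that of FDFT1 in the methyl group was 0.27 with quantile normalization, 0.21 with array weights and 0.19 on small-gap arrays, none called. FDFT1 from 35 to 91 dpc stayed at 0.18 with no intensity trend, a robust spread, no filter or the arrays of the compared ages alone, and was 0.11 with array weights, 0.22 on large-gap arrays, 0.12 on small-gap arrays, 0.21 with the erythroid covariate and 0.13 to 0.21 with an array left out. On small-gap arrays, FDPS was -0.16 (35 to 63 dpc) and -0.18 (35 to 91 dpc), FDFT1 0.17 and INSIG1 0.40 (35 to 63 dpc); the member probe sets called from 35 to 63 dpc were then 2 higher and 0 lower, and 0 lower from 35 to 91 dpc. With the erythroid covariate, the 63 to 91 dpc step was 0.67 for SQLE, 1.16 for HMGCS1 and 0.58 for INSIG1, with 0 members higher, and FDPS was -0.76 from 35 to 91 dpc, with 0 lower. With the mean of its probe sets, the INSIG1 step from 35 to 63 dpc was 0.20.

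Values that turned sign were never called, apart from the SCD step from 63 to 91 dpc (0.070 with the erythroid covariate). With quantile normalization, INSIG1 for diet was 0.040 at 91 dpc and 0.0071 on average, its dimmer probe set -0.086 from 63 to 91 dpc, and FDFT1 0.024 at that step in the methyl group. With array weights, HMGCS1 for diet at 63 dpc was 0.025, FDFT1 0.016 there and 0.0031 on average, FDPS -0.0095 and INSIG1 0.018 on average, and the dimmer INSIG1 probe set -0.031 from 63 to 91 dpc. On large-gap arrays, FDPS for diet was -0.023 at 63 dpc and -0.026 on average, and FDFT1 0.036 for diet at 63 dpc and 0.0042 from 63 to 91 dpc in the methyl group. On small-gap arrays, the SQLE difference between steps was 0.040, HMGCS1 for diet at 63 dpc 0.15, FDFT1 for diet at 91 dpc -0.021, and the dimmer INSIG1 probe set 0.14 from 35 to 63 dpc. With the erythroid covariate, FDPS for diet on average was -0.0068, the dimmer INSIG1 probe set 0.20 from 35 to 63 dpc, and SCAP -0.41 and SREBF2 -0.42 from 63 to 91 dpc. With the 3' to 5' covariate, HMGCS1 for diet at 63 dpc was 0.032, INSIG1 for diet at 91 dpc 0.025, and FDFT1 0.086 from 63 to 91 dpc in the methyl group. With the mean of all probe sets, INSIG1 from 35 to 63 dpc in controls was -0.052 and SREBF2 -0.12 from 63 to 91 dpc.

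With each array left out in turn, these diet differences crossed 0: SQLE at 35 dpc (-0.29 to 0.10) and on average (-0.076 to 0.053), HMGCS1 at 63 dpc (-0.13 to 0.094) and 91 dpc (-0.22 to 0.045), FDPS at 63 dpc (-0.038 to 0.11) and on average (-0.017 to 0.042), FDFT1 at 63 dpc (-0.068 to 0.050) and 91 dpc (-0.0018 to 0.10), and INSIG1 at 91 dpc (-0.097 to 0.072) and on average (-0.062 to 0.016). So did the later step in the methyl group of FDFT1 (-0.081 to 0.037) and FDPS (-0.11 to 0.0050), and the steps of the dimmer INSIG1 probe set (-0.14 to 0.081 and -0.17 to 0.16).

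Over all probe sets, small-gap arrays alone gave 2358 higher and 2440 lower from 35 to 63 dpc (4985 and 4293 with all arrays) and 2320 and 2940 from 63 to 91 dpc (4523 and 4440). The erythroid covariate gave 769 and 1183 from 63 to 91 dpc and 2909 and 2837 from 35 to 91 dpc (6261 and 5989). The steps differed for 1994 probe sets, 833 on large-gap arrays, 219 on small-gap arrays and 440 with the erythroid covariate. For diet, calls at 35 dpc ran from 0 to 18 (6 as reported), those at 91 dpc from 0 to 44 (11) and those by age from 0 to 7 (0). Quantile normalization moved the median of all probe sets tested to -0.10 from 63 to 91 dpc, from -0.03.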

Other observations

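Genes that use or export cholesterol were described with a further list, in which some rose and some fell. Their relation to the synthesis enzymes was not tested. Of 18 genes for esterification, efflux, lipoprotein assembly and bile acid synthesis, 11 were named and 9 tested: 5 rose and 2 fell at each of the 2 age steps, beside 30.4% and 38.5% of all genes at the earlier step and 22.6% and 39.8% at the later. APOB, the structural protein of very-low-density lipoprotein, rose by 1.72 ± 0.20 and 1.42 ± 0.20 (limma adjusted p = 4.46e-08 and 8.43e-07). ABCA1, which loads cholesterol onto high-density lipoprotein, rose by 1.41 ± 0.24 and 1.77 ± 0.24 (limma adjusted p = 1.23e-05 and 3.51e-07). MTTP, which lipidates APOB, rose by 1.06 ± 0.15 and 0.55 ± 0.15 (limma adjusted p = 4.33e-07 and 0.00179). APOA1 rose by 0.20 ± 0.04 at the earlier step (limma adjusted p = 0.000137). ABCG8, a part of the sterol exporter into bile, lay at or near the lowest value of the table until 63 dpc (2.20 and 2.22). At 91 dpc it had a mean of 3.33 ± 0.65 (SD, n = 10), a difference of 1.11. It lay above the 40th percentile on 7 arrays, all of them at 91 dpc. ABCG8 thus passed the filter only through the age where it is high, and its call, counted among the 5 that rose at the later step, is not read as a test. CYP27A1, an enzyme of the alternative bile acid route, fell by 0.30 ± 0.10 and 0.47 ± 0.10 on its brightest probe set (limma adjusted p = 0.0104 and 0.000164). On its other tested probe sets the earlier step was -0.28 and -0.12 (limma adjusted p = 0.271 and 0.683). The later step was -0.65 and 0.05 on them (limma adjusted p = 0.0102 and 0.869). With the erythroid covariate the later steps of APOB (1.71), ABCA1 (1.44), ABCG8 (0.26) and CYP27A1 (-0.23) were not called, with limma adjusted p-values of 0.0529, 0.162, 0.724 and 0.626. On small-gap arrays alone the earlier ABCA1 step was 0.88 and not called (limma adjusted p = 0.066), and with the mean of its probe sets the later CYP27A1 step was -0.36 and not called (limma adjusted p = 0.0766). CYP7A1, the rate-limiting enzyme of the classical route, never rose above the 40th percentile on any of the 32 arrays and was not tested.

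Of 12 fatty acid synthesis genes, 8 were named and tested: 3 rose and 1 fell at the earlier step, beside 30.4% and 38.5% of all genes, and 1 rose and 3 fell at the later, beside 22.6% and 39.8%. ELOVL6, a fatty acid elongase, rose at both on its brightest probe set, by 0.62 ± 0.17 and 0.99 ± 0.17 (limma adjusted p = 0.00201 and 9.08e-06). Its other tested probe sets were 0.38, 0.03 and 0.26 at the earlier step (limma adjusted p = 0.0167, 0.917 and 0.0727). At the later step they rose by 0.69, 1.51 and 0.74, all called. SCD, the stearoyl-CoA desaturase, rose by 0.74 ± 0.11 (limma adjusted p = 1.38e-06) and then fell by 0.47 ± 0.11 (limma adjusted p = 0.000481), the latter turning to 0.07 with the erythroid covariate. FADS1, a desaturase of polyunsaturated fatty acids, rose by 0.48 ± 0.19 and ME1, malic enzyme, fell by 0.58 ± 0.16 at the earlier step (limma adjusted p = 0.031 and 0.00266). FASN, the fatty acid synthase, fell by 0.62 ± 0.14 at the later step (limma adjusted p = 0.00028) on its brightest probe set. Its dimmest tested probe set fell at the earlier step instead, by 0.66 ± 0.18 (limma adjusted p = 0.00179), and was -0.10 at the later (0.639). Another was called at neither, at -0.30 and -0.35 (limma adjusted p = 0.103 and 0.061). SREBF1, the factor that drives this list, fell by 0.29 ± 0.11 at the later step (limma adjusted p = 0.0286) after a difference of -0.20 ± 0.11 at the earlier step (limma adjusted p = 0.136, but -0.28 and called after quantile normalization, limma adjusted p = 0.0498). Both SREBF1 and ME1 were dim, with means of 3.68, 3.49 and 3.20 for SREBF1 and 3.90, 3.32 and 3.16 for ME1. Array medians ran from 3.84 to 4.23. SREBF1 lay above the 40th percentile on 31 of the 32 arrays and ME1 on 30. The FADS1 call was lost when any 1 of 7 arrays was left out, at 0.35 to 0.46. It was also lost with no filter (0.48, limma adjusted p = 0.0536), on large-gap (0.52, 0.112) or small-gap arrays alone (0.41, 0.324), and with the erythroid (0.32, 0.274) or the 3' to 5' covariate (0.42, 0.0516). The later SREBF1 call was lost without replicate 2 (-0.25) or 3 (-0.26) of the 91 dpc methyl group, and on large-gap (-0.20, limma adjusted p = 0.227) or small-gap arrays alone (-0.39, 0.123). On small-gap arrays alone the earlier ELOVL6 step was 0.49 and not called (limma adjusted p = 0.148). With the erythroid covariate the later steps of ELOVL6 (0.82), FASN (-0.41) and SREBF1 (-0.05) were not called, with limma adjusted p-values of 0.253, 0.504 and 0.943.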
